A study of Mus spretus with 19 samples.

Results

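The livers of Algerian mice (Mus spretus) trapped on phosphogypsum waste heaps of the fertilizer industry (PS, the phosphogypsum stacks) were compared with those caught at the upper course of the Domingo Rubio stream (DR6). Of the 19 arrays in the series, the 4 titled as PS and the 3 titled as DR6 were compared, 7 in all. Both sites are labelled polluted, so neither is a control. The other 12 arrays, used for the error estimate and as a description, came from the Santa Olalla lagoon (SOL, labelled unpolluted) and from the lower and medium courses of the stream (DR1 and DR4, labelled polluted), with 4 arrays each. All mice were wild-caught males, with no age given in the labels, and each site was 1 pool of total RNA from 9 livers. The arrays of a site were separate labelling reactions of that pool. The p-values below therefore measure technical spread only, and how much the mice of a site varied was not measured. Each site also had its own slide and its own scan, so site and slide cannot be told apart. The probes were designed on Mus musculus sequence.

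A level below is the log2 of the background-corrected Cy3 signal minus the 75th percentile of that signal on the same array. A difference is PS minus DR6 on that log2 scale, so positive values are higher at PS and a negative one is higher at DR6. A gene was called when limma's moderated test, adjusted by Benjamini-Hochberg over the 16320 genes and transcripts tested, gave an adjusted p under 0.05 and the difference was at least 2-fold. PS arrays correlated with each other at r = 0.995 to 0.997 across genes, DR6 arrays at 0.994 to 0.995, and PS with DR6 arrays at 0.974 to 0.977 (genes are not independent replicates). The 75th percentile was 159 to 182 signal units on the PS arrays and 129 to 143 on the DR6 arrays, and 54.2% to 56.2% and 53.3% to 54.9% of gene spots were well above background. Of the 18 hepatocyte markers listed, 16 were tested and each was above background at both sites.

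The liver makes cholesterol and fatty acids under the control of the SREBP transcription factors, which are switched off by sterols and, for the fatty acid branch, driven by insulin and feeding. Immediate early genes are transcription factors and feedback regulators whose RNA appears within minutes of hormonal, mitogenic or stress signals and decays quickly. Interferons, produced on infection, switch on a set of antiviral genes in most cells. Plasma cells, which secrete antibody, carry immunoglobulin transcripts and a large endoplasmic reticulum (ER).

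The sequences below identify what was measured for 7 genes that lead the groups described below. Each line gives the first 30 bases of the 60-base array probe that stood for the gene, written 5′ to 3′ in the sense of the transcript, with the position of these bases on the mm8 mouse build. No annotation was used to place them in an exon or an untranslated region.
Adra2a, alpha-2A adrenergic receptor, chr19:54102182-54102211, plus strand: gatctgatttcacgagagaaaaactaaatg
Scd1, stearoyl-CoA desaturase, chr19:44448238-44448267, minus strand: actcctgggctaagtatctgacagtctcac
Atf3, stress-induced transcription factor, chr1:192871313-192871342, minus strand: cacagcagctttgtccttggctacaaactg
Nr4a1, nuclear receptor of the immediate early class, chr15:101102674-101102703, plus strand: ctcttccgctctccttccatgtgtacataa
Chgb, chromogranin B, chr2:132486408-132486437, plus strand: tagcgtgacttgtagcgtattcttcctgca
Mx2, interferon-induced antiviral GTPase, chr16:97715636-97715665, plus strand: aagagaaagaggctctcaaagctcagcaag
Derl3, ER-associated degradation factor, chr10:75339474-75339503, plus strand: agccgtgtacagtggaggtaggtctgggac

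Of the genes tested, 1193 were called between the sites (7.31%), 411 higher at PS (2.52%) and 782 higher at DR6 (4.79%). The split depends on the scaling: of the calls, 34.5% were higher at PS under the 75th percentile, 45.6% under quantile scaling and 52.6% under median scaling, which moved the median difference of all genes from 0.01 to 0.18. With normexp background correction and quantile scaling together, called normexp below, 303 genes were called, and 85 of the 136 called genes examined singly stayed called. The pair ranked 4th of the 10 pairs of sites by number of calls. Differences over 2 on the log2 scale were found for 77 genes higher at PS and 167 higher at DR6. At an adjusted p under 0.05 alone, 6889 genes (42.2%) differed, 3666 (22.5%) higher at PS and 3223 (19.7%) higher at DR6. The arrays of the sites did not overlap for 55.9% of all genes tested, so the absence of overlap is common here and is stated below only to describe the values. A gene that no array of the lower site measured well above background has only a bound, given as "at least". Of the calls, 282 had only a bound, counting any whose higher site was saturated, and 24 were above background at neither site. The other 887 counted as measured, 703 of them well above background on every PS and DR6 array. A call used the fitted difference, so a bound can lie under 2-fold. Counts of called list members below are to be read beside the shares over all genes given above.

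**Figure D1:**
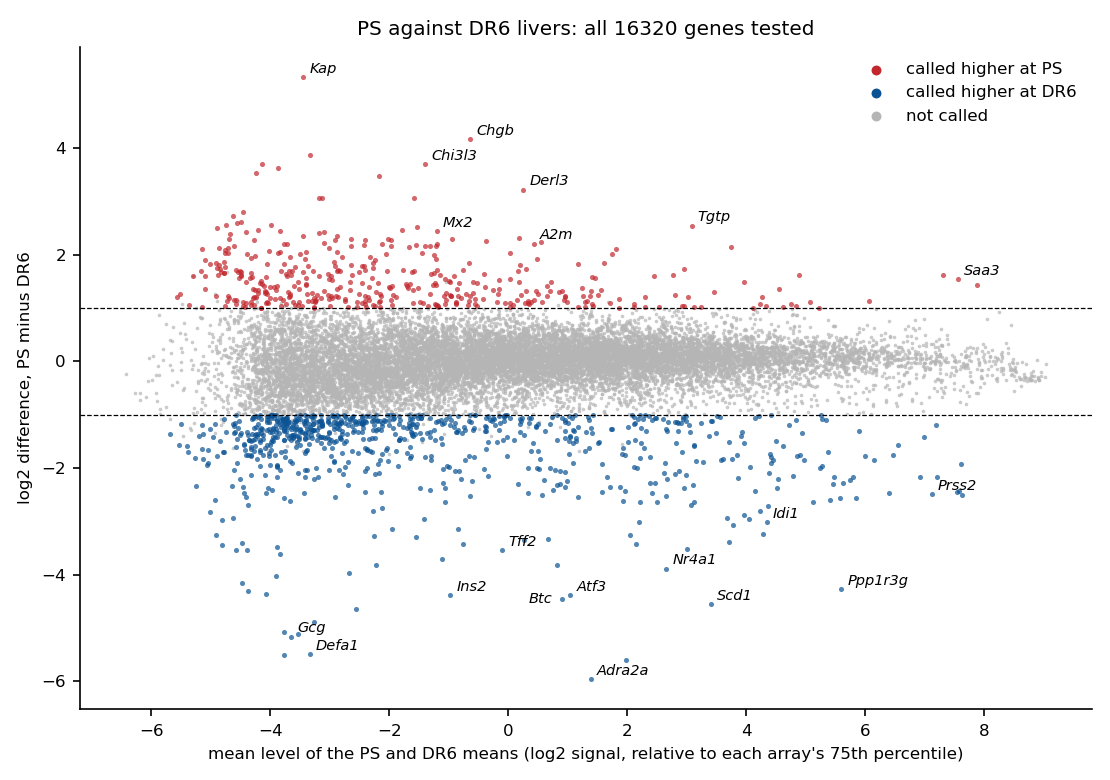
Difference between PS and DR6 (y axis, log2) against the mean of the PS and DR6 levels (x axis, log2 signal relative to the 75th percentile of each array) for the 16320 genes and transcripts tested. Red points are the 411 called higher at PS, blue points the 782 called higher at DR6, grey points the rest, and dashed lines mark a 2-fold difference. Adra2a lies lowest at -5.96 and Kap, whose DR6 arrays were all at background, highest at 5.33.

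The single largest difference was that of Adra2a, which encodes the alpha-2A adrenergic receptor, a Gi-coupled receptor for noradrenaline and adrenaline. Its level was -1.54, -1.59, -1.65 and -1.59 on the PS arrays and 4.22, 4.47 and 4.41 on the DR6 arrays, with a mean of -0.18 at SOL, 0.22 at DR1 and 3.63 at DR4. The DR6 arrays lay far above the PS arrays, 62.2-fold (difference -5.96, SE 0.06, adjusted p = 1.8e-19), and PS and DR6 were the lowest and highest of the 5 sites. Ppp1r3g, a glycogen-targeting subunit of protein phosphatase 1 that couples feeding to glycogen storage, was at 3.46, 3.43, 3.43 and 3.49 at PS and at 8.21, 7.38 and 7.61 at DR6. The PS arrays were nearly alike and all DR6 arrays lay above them, 19.4-fold (difference -4.28, SE 0.17, adjusted p = 4.3e-12). Snf1lk, the salt-inducible kinase 1 that restrains gluconeogenic transcription, was 10.1-fold higher at DR6 (difference -3.33, SE 0.14). Elovl3, a fatty acid elongase whose liver RNA is higher in males and varies over the day, was 10.5-fold higher at DR6 (difference -3.40, SE 0.06), with levels of 1.98 to 2.07 at PS and 5.35 to 5.46 at DR6.

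The immediate early genes were called in 1 direction: 13 of the 21 tested were higher at DR6 and none higher at PS, with a median difference of -1.81 beside 0.01 over all genes (-0.999 with normexp). The share called higher at DR6 over all genes was 4.79%. Atf3, a stress-induced repressor, was at -1.12, -1.17, -1.15 and -1.18 at PS and at 3.26, 3.24 and 3.18 at DR6. Nr4a1, an orphan nuclear receptor induced by cAMP and adrenergic signals, was at 0.71, 0.70, 0.66 and 0.73 at PS and at 4.68, 4.59 and 4.50 at DR6. In both genes the arrays of a site agreed within a narrow range and the sites were far apart, 20.8-fold for Atf3 (adjusted p = 5.5e-16) and 14.8-fold for Nr4a1 (adjusted p = 7.4e-17). Btg2, an antiproliferative factor (difference -3.53, SE 0.07), Nr4a2, a relative of Nr4a1 (-3.43, SE 0.12), and Maff, a small Maf transcription factor (-2.44, SE 0.10), were higher at DR6 as well. Fos, a subunit of AP-1, was -2.68 to -2.47 at PS and -0.84 to -0.66 at DR6, a difference of -1.81 (SE 0.13, adjusted p = 6.5e-09). The other called members, chosen after their values were seen, were Klf6, Myc, Jun, Dusp1, Fosl2, Klf4 and Zfp36. Not called were Junb, Egr1, Ier3, Cyr61, Ier2, Fosb, Egr2 and Klf2, with differences between -0.78 and 0.62. The same list was low at SOL and high at DR4: the median deviation of the members from their mean over the 5 sites was -0.72 at SOL, -0.68 at PS, 0.09 at DR1, 0.44 at DR4 and 0.66 at DR6. Nr4a1 stood at 4.54 at DR1 and 3.99 at DR4 against 1.31 at SOL, whereas Atf3 stood at 0.42 and 0.72 against -0.52.

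In p53 signalling and growth arrest the median difference was -0.31 (-0.15 under median scaling). Of the 27 genes tested, 8 were higher at DR6 (4.79% over all genes) and none at PS. Besides Btg2, which is on both lists, these were Plk3, a polo-like kinase (difference -2.81, SE 0.07), and the 3 Gadd45 genes, which encode small stress-induced signalling proteins. Gadd45g differed by -2.57 (SE 0.25), Gadd45b by -2.20 (SE 0.06) and Gadd45a by -2.20 (SE 0.29). Gadd45b was 3.32 to 3.49 at PS, near the SOL mean of 3.36, and 5.61 to 5.64 at DR6, near the DR4 mean of 5.52. The remaining called members were Trp53inp1, Sesn1 and Ddit4. Cdkn1a, the cyclin-dependent kinase inhibitor p21, was below the 2-fold limit at -0.31 (SE 0.06, adjusted p = 0.00078). Mdm2, Bax, Bbc3 and Ccng1 were among the 19 members not called, whose differences ran from -0.89 to 0.77.

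Among ligands and receptors of the epidermal growth factor family, 5 of 14 tested were higher at DR6, beside 4.79% over all genes. None was higher at PS. Betacellulin (Btc), a ligand of the EGF receptor, was at -1.27, -1.32, -1.40 and -1.36 at PS and at 3.1, 3.12 and 3.15 at DR6. It was 22.0-fold higher at DR6 (difference -4.46, SE 0.11, adjusted p = 1.1e-14), and its site means rose from SOL (-1.58) and PS through DR1 (1.76) and DR6 to DR4 (3.83). The receptor Egfr was 4.2 to 4.32 at PS and 5.54 to 5.63 at DR6, a difference of -1.34 (SE 0.05). Epiregulin (Ereg), another ligand, was above background on no PS array and was at least 2.05-fold higher at DR6. Areg and Nrg1 were the other called members, and Areg was above background on no array of either site.

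Of 18 clock genes, 3 were called, each higher at DR6, beside 4.79% over all genes. These were Bhlhb2 (-2.64, SE 0.10), Nfil3 (-2.20, SE 0.50) and Cry1 (-1.10, SE 0.10), which encode repressors of the clock and its outputs. Per1, a clock gene that also answers to acute signals, was 1.86 to 2.01 at PS and 2.65 to 3.06 at DR6, just under the limit at -0.98 (SE 0.13, adjusted p = 1.5e-05). The core activator Arntl differed by 0.51 (SE 0.42, adjusted p = 0.36) and Dbp, a clock output, by -0.65 (SE 0.29, adjusted p = 0.085). Without the second PS array Per1 reached -1.002 and without the third DR6 array -1.11, past the limit.

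**Figure D2:**
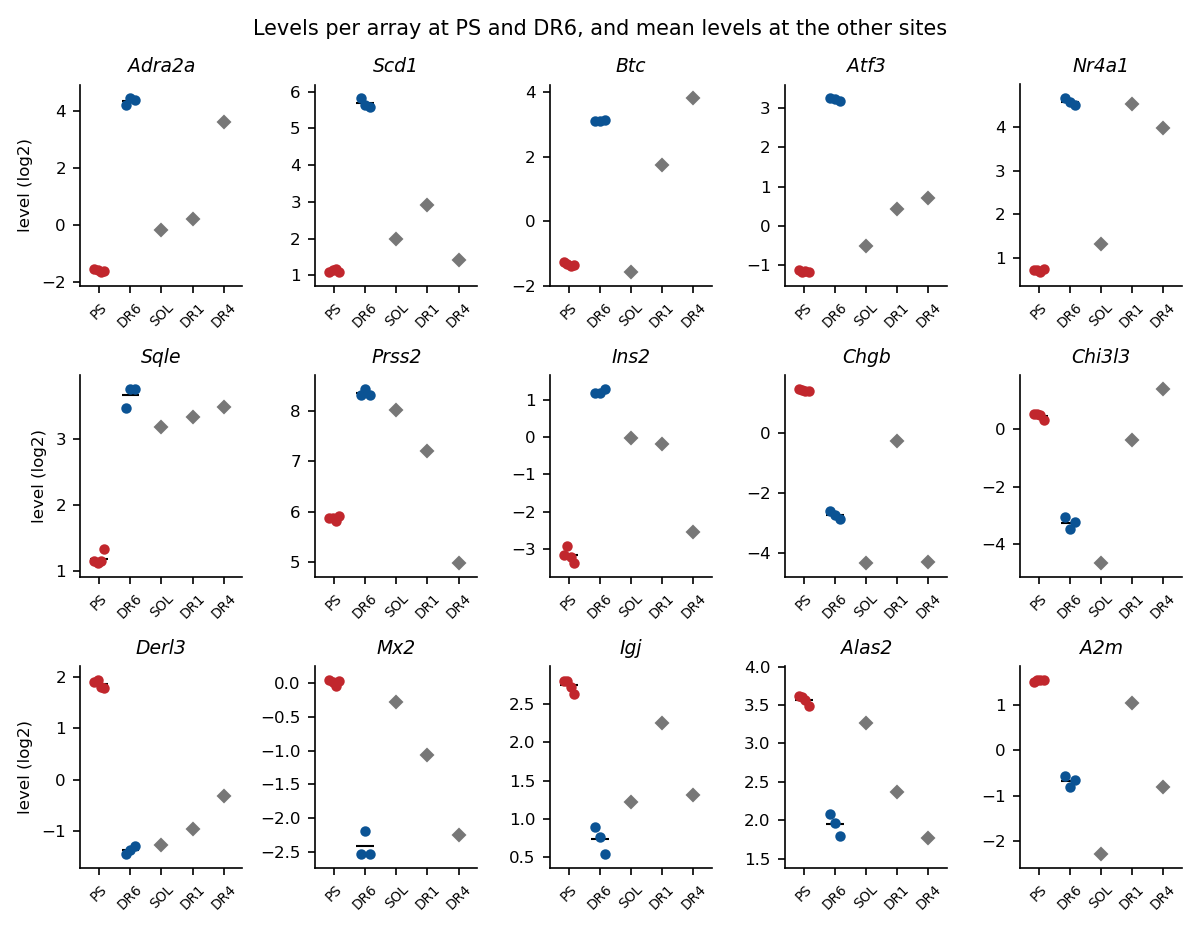
Level (y axis, log2 signal relative to the 75th percentile of the array) of 15 genes on each of the 4 PS arrays (red) and 3 DR6 arrays (blue), with black lines at the site means and grey diamonds at the means of SOL, DR1 and DR4 (4 arrays each). In every panel the PS and DR6 arrays are separate. Adra2a, Scd1, Btc, Atf3, Nr4a1, Sqle, Prss2 and Ins2 are higher at DR6, and Chgb, Chi3l3, Derl3, Mx2, Igj, Alas2 and A2m higher at PS.

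Cholesterol synthesis was the liver pathway with the highest share of called members among those listed. Of its 25 genes tested, 20 were higher at DR6 and none at PS, with a median difference of -1.75. Sqle, squalene epoxidase, which commits squalene to sterols, was at 1.15, 1.11, 1.14 and 1.33 at PS and at 3.46, 3.75 and 3.75 at DR6. All DR6 arrays lay above those of PS, 5.55-fold (difference -2.47, SE 0.08, adjusted p = 4.5e-13), and SOL, DR1 and DR4 lay between, at 3.18 to 3.48. Earlier steps gave like values: Pmvk, phosphomevalonate kinase, differed by -2.96 (SE 0.08), and Idi1, isopentenyl diphosphate isomerase, by -3.01 (SE 0.09, with 1 DR6 array left out as an outlier spot). Fdps, farnesyl diphosphate synthase, differed by -2.71 (SE 0.08). Other called enzymes were Lss, Cyp51, Sc4mol, Nsdhl, Fdft1, Dhcr7, Mvk, Hmgcs1, Sc5d, Hsd17b7 and Mvd, along with the sterol carrier Stard4. Insig1, a feedback gene that holds SREBPs in the ER, differed by -1.18 (SE 0.07). Srebf2, encoding the SREBP of the sterol branch, was 3.46 to 3.62 at PS and 4.08 to 4.13 at DR6, a difference of -0.56 (SE 0.06, adjusted p = 1.4e-06) that did not reach 2-fold. Ebp, Tm7sf2 and Acat2 were not called either.

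PS lay below every other site in nearly the whole pathway. It had the lowest of the 5 site means for 24 of the 25 genes, and the median deviation from the mean over sites was -1.45 at PS against 0.20 to 0.48 at the other 4 sites. On single arrays the median deviation was -1.45 to -1.37 at PS and 0.47 to 0.51 at DR6. Comparisons of PS with other sites share the PS arrays and are not separate evidence. Around the pathway, 4 of the 18 genes of cholesterol export and uptake were called, each higher at DR6. These were Abcg8, a subunit of the biliary sterol exporter (-1.53, SE 0.10), Npc1l1, the sterol importer (-1.48, SE 0.11), Pltp, phospholipid transfer protein (-1.38, SE 0.11), and Apob (-1.90, SE 0.29). The list's median was close to 0 and its sign depended on the scaling, so the list is given no direction.

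Fatty acid synthesis was called in part: 7 of 23 genes were higher at DR6 and none at PS, with a median difference of -0.77. Scd1, the desaturase that makes monounsaturated fatty acids, was at 1.08, 1.14, 1.18 and 1.09 at PS and at 5.83, 5.64 and 5.58 at DR6. The DR6 arrays were 23.6-fold above those of PS (difference -4.56, SE 0.07, adjusted p = 2.7e-17), and here DR6 also stood apart from SOL (2.01), DR1 (2.91) and DR4 (1.41). Fasn, fatty acid synthase, was 3.44 to 3.62 at PS and 5.25 to 5.28 at DR6, a difference of -1.74 (SE 0.09). Acss2, acetyl-CoA synthetase (-1.34, SE 0.08), Thrsp, a lipogenic regulator (-1.31, SE 0.08), and Lpin1, a phosphatidate phosphatase and coregulator (-1.11, SE 0.07), were higher at DR6, as were Scd2 and Fads1. Srebf1, encoding the lipogenic SREBP, was 2.69 to 2.78 at PS and 2.72 to 2.80 at DR6, with overlapping arrays (difference -0.01, SE 0.09, adjusted p = 0.92). Under median scaling 4 of the 7 calls were made.

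Fuel and bile acid genes were called in both directions, at shares to be read beside the 7.31% of all genes. Of 37 PPAR alpha targets and fatty acid oxidation genes, 1 was called, Pdk4, a kinase that blocks pyruvate oxidation in fasting. It was 3.64 to 3.77 at PS and 5.82 to 5.93 at DR6 (difference -2.15, SE 0.11, adjusted p = 9.3e-11). Fgf21, a fasting hormone of the liver, differed by 1.11 with a wide error (SE 0.44, adjusted p = 0.052) and was called under 5 of the alternatives, and Cyp4a10, a sensitive PPAR alpha target, by 0.14 (SE 0.08, adjusted p = 0.17). Among 24 genes of glucose handling, G6pc, glucose-6-phosphatase (-1.77, SE 0.07), and the coactivator Ppargc1a (-1.19, SE 0.15) were higher at DR6. Ppp1r3c, a glycogen-targeting subunit like Ppp1r3g, was higher at PS by 1.67 (SE 0.24), and so was Slc2a2, the glucose transporter of hepatocytes, by 1.04 (SE 0.13). Of 19 bile acid genes, Cyp8b1, the enzyme that makes cholic acid (-1.02, SE 0.12), and the bile acid importer Slc10a2 (-1.31, SE 0.13) were higher at DR6. Cyp7a1, the rate-limiting enzyme, differed by -0.41 (SE 0.09, adjusted p = 0.001). The calls at the limit were lost without single arrays: Slc2a2 without the first PS array (0.996), and Cyp8b1 without the third PS array (-0.998) or the third DR6 array (-0.94). In amino acid metabolism, Csad, which makes taurine (-2.31, SE 0.08), Got1, aspartate aminotransferase (-1.58, SE 0.07), and Aass, of lysine breakdown (-1.19, SE 0.06), were higher at DR6. They were the called members among 18 genes of taurine and sulfur amino acids and 36 of the urea cycle and amino acid breakdown.

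Transcripts of exocrine pancreas were higher at DR6 without exception in the list: all 18 tested were called, with differences between -3.07 and -1.79 and a median of -2.17. The trypsinogen Prss2 was 5.81 to 5.91 at PS and 8.31 to 8.44 at DR6, the elastase Ela1 2.20 to 2.27 and 5.28 to 5.37, and the carboxypeptidase Cpa1 5.10 to 5.19 and 7.59 to 7.68. Their differences were -2.48 (SE 0.08), -3.07 (SE 0.06) and -2.47 (SE 0.08). Cel, a bile-salt-stimulated lipase (-2.60, SE 0.14), and Ctrb1, chymotrypsinogen B (-2.63, SE 0.12), were higher at DR6 as well. Summed over the list on the linear scale, the level was 494 to 504 times the 75th percentile on the PS arrays and 2259 to 2315 times on the DR6 arrays, a ratio of 4.57. The sum of the site means was 2015 at SOL, 1107 at DR1 and 253 at DR4. In a pooled tissue sample, fewer cells of a type and less RNA per cell cannot be told apart, and the part of pancreatic tissue in these values was not tested.

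Islet hormones were called on the same side. Ins2, insulin II, was at -3.17, -2.93, -3.20 and -3.38 at PS and at 1.18, 1.19 and 1.29 at DR6, which is 20.9-fold (difference -4.39, SE 0.12). Ins1 was above background on 1 of the 4 PS arrays and on all 3 DR6 arrays (difference -3.83, SE 0.24). Glucagon (Gcg) was at least 9.57-fold and pancreatic polypeptide (Ppy) at least 3.79-fold higher at DR6. In all, 8 of 12 islet and neuroendocrine genes were higher at DR6, and Gcg, Sst, Ppy, Iapp and Pcsk1 were above background on no PS array. The summed level of the 12 was 4.02 to 4.28 at PS and 6.58 to 7.53 at DR6. Chgb, chromogranin B, a protein of dense-core secretory granules, was the exception and made up most of the PS sum. It was at 1.48, 1.45, 1.41 and 1.4 at PS and at -2.59, -2.72 and -2.86 at DR6, 17.9-fold higher at PS (difference 4.16, SE 0.11, adjusted p = 1.4e-14), with site means of -4.34 at SOL, -0.27 at DR1 and -4.30 at DR4. Chga, the related chromogranin A, was not called.

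Markers of gut epithelium were higher at DR6 for 7 of 11 genes tested, and 5 of these genes were above background on no PS array. The alpha-defensins of Paneth cells led. Defa1, a cryptdin, was at least 13.3-fold higher and its relative Defcr6 at least 9.85-fold, and 6 of the 7 alpha-defensin genes tested were called higher at DR6. Agr2, a mucus-cell disulfide isomerase, was at least 11.3-fold and Cdx2, the intestinal homeobox factor, at least 4.30-fold higher. Clca3, a goblet-cell secreted protein outside the list, had the largest bound of the comparison, at least 17.0-fold. The trefoil peptides Tff2 (-3.54, SE 0.09) and Tff3 (-2.46, SE 0.22) were higher at DR6 too. Cdx2 was above background on no array of the other 4 sites (means between -6.54 and -6.22), and at -2.22 ± 0.02 (SD, n = 3 arrays) at DR6. The summed level of the gut list was 69.0 to 74.6 at PS and 69.3 to 73.9 at DR6, so the sum, which the members not called dominate, did not separate the sites. Of 6 Reg lectins, which pancreas and gut both make, 2 were called higher at DR6: Reg1 (-1.99, SE 0.14) and Reg3g (at least 2.86-fold). The part of gut tissue in these values was not tested.

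**Figure D3:**
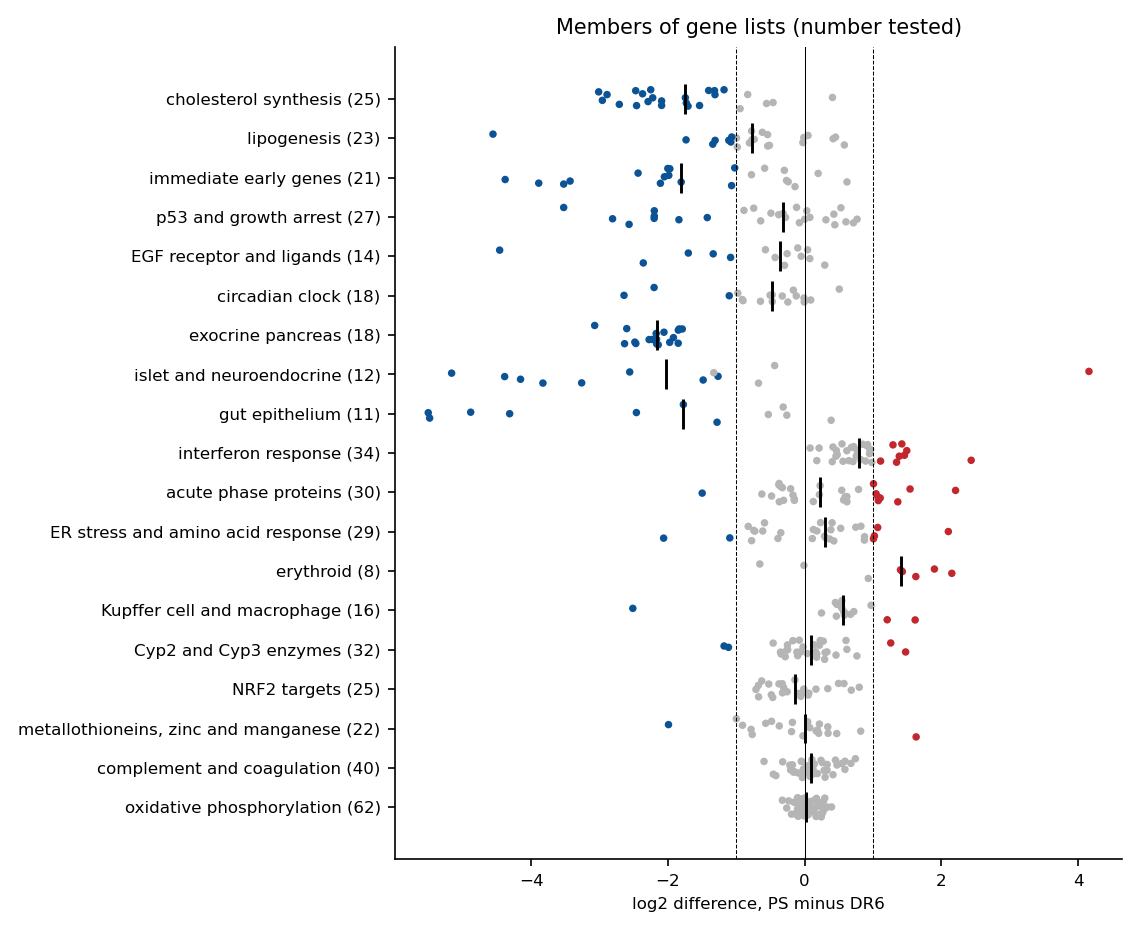
Difference between PS and DR6 (x axis, log2) of each tested member of 19 gene lists, with the number tested in brackets and a black bar at the list's median. Blue points are members called higher at DR6, red points members called higher at PS and grey points the rest. All 18 exocrine pancreas genes and 20 of 25 cholesterol synthesis genes are blue, and all 34 interferon response genes lie above 0, 8 of them red.

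On the PS side, the interferon response genes shifted together by modest amounts. Of 34 tested, 8 were called higher at PS and none higher at DR6, all 34 had a difference above 0, and 32 passed the adjusted p alone. The median difference was 0.79. Over all genes, 2.52% were called higher at PS and 22.5% passed the adjusted p alone higher there. Mx2 was at 0.05, 0.02, -0.04 and 0.03 at PS and at -2.54, -2.19 and -2.53 at DR6, 5.41-fold (difference 2.44, SE 0.10, adjusted p = 6.6e-12). The transcription factor Irf7 was 0.91 to 0.93 at PS and -0.77 to -0.29 at DR6 (difference 1.49, SE 0.14). Oas1a, which senses double-stranded RNA (1.46, SE 0.14), and the ubiquitin-like Isg15 (1.42, SE 0.07) were higher at PS, as were Oas1b, Ifi47, Gbp2 and Usp18. Below the limit, Ifit1 differed by 0.72 (SE 0.21, adjusted p = 0.012) and the chemokine Cxcl10 by 0.55 (SE 0.17, adjusted p = 0.014). Tgtp, an interferon-induced GTPase outside the list, was 4.23 to 4.40 at PS and 1.63 to 2.0 at DR6, 5.83-fold higher at PS. PS had the highest of the 5 site means for 18 of the 34 and DR6 the lowest for 21. Under median scaling 16 of the 34 were called, and the median was higher by the same shift as that of all genes.

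Immunoglobulin transcripts were higher at PS. Of the 20 genes tested whose symbols begin with Igh, Igk or Igl, 13 were called higher at PS and none at DR6, with a median difference of 1.75. This family was chosen after its members appeared among the largest differences. Ighg, a heavy chain, was at 1.78, 1.72, 1.69 and 1.45 at PS and at -0.46, -0.67 and -0.58 at DR6, 4.69-fold (difference 2.23, SE 0.14), and the kappa chain Igk-V differed by 2.30 (SE 0.08). The kappa chain Igk-V1 was higher as well (2.16, SE 0.07), and 6 of the 13 calls were of genes at background at DR6. Whether these probes also bind each other's transcripts was not tested. Igj, the joining chain of secreted IgA and IgM, was 2.64 to 2.80 at PS and 0.55 to 0.90 at DR6, 4.01-fold, and it was the 1 called member among the 8 B and plasma cell markers tested. Cd79b, part of the B cell receptor, differed by 0.35 (SE 0.11, adjusted p = 0.022). The summed level of those 8 was 17.4 to 18.2 at PS and 10.7 to 13.3 at DR6. Cxcl13, the chemokine that draws B cells, was -0.66 to -0.45 at PS and -3.16 to -2.77 at DR6 (difference 2.45, SE 0.22).

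Single genes of ER protein handling were called higher at PS, and 2 of the amino acid response higher at DR6. Derl3, which takes misfolded proteins out of the ER and is abundant in secretory cells, was at 1.89, 1.93, 1.80 and 1.78 at PS and at -1.45, -1.36 and -1.29 at DR6. It was 9.31-fold higher at PS (difference 3.22, SE 0.09, adjusted p = 7.0e-14), and PS stood alone, with SOL at -1.27, DR1 at -0.95 and DR4 at -0.33. Of 29 genes of ER stress and the amino acid response, Sdf2l1, an ER chaperone cofactor (2.10, SE 0.46), Creld2 (1.07, SE 0.10), Pdia3, a disulfide isomerase (1.02, SE 0.07), and Armet, a secreted ER stress protein (1.01, SE 0.18), were called higher at PS. Phgdh, the first enzyme of serine synthesis (-2.06, SE 0.08), and Asns, asparagine synthetase (-1.09, SE 0.11), were higher at DR6, and these belong to the amino acid response rather than to protein folding. The call of Pdia3 was lost without the third PS array (0.999) or the first DR6 array (0.97), and that of Armet without the fourth PS array (0.98) or the first DR6 array (0.95). With the replicate number as a block, the differences were 0.99 for Pdia3 and 0.95 for Armet, under the limit.

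Erythroid transcripts were higher at PS for 5 of 8 markers tested, with a median difference of 1.42 (0.63 with normexp). Alas2, the erythroid enzyme of heme synthesis, was at 3.62, 3.61, 3.57 and 3.49 at PS and at 2.08, 1.96 and 1.79 at DR6 (difference 1.63, SE 0.10, adjusted p = 1.6e-09). Hba-a1, alpha globin, differed by 1.43 (SE 0.07), Slc4a1, the red cell anion exchanger, by 1.4 (SE 0.13) and Eraf, the globin chaperone, by 2.15 (SE 0.19, above background on 1 of the 3 DR6 arrays). Spna1, red cell spectrin, was called but lies too close to background for a fold. The summed level of the 8 markers was 757 to 861 at PS and 360 to 375 at DR6, and from the site means 767 at SOL, 398 at DR1 and 307 at DR4. Gata1 was above background at neither site. The part of blood left in the livers was not tested.

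Of 16 Kupffer cell and macrophage markers, 15 lay above 0 and 13 passed the adjusted p alone higher at PS, with a median of 0.56, but 2 reached 2-fold there. Over all genes, 22.5% passed the adjusted p alone higher at PS. Marco, a scavenger receptor, was 5.58 to 5.78 at PS and 3.99 to 4.13 at DR6 (difference 1.62, SE 0.09), and the lysozyme Lyzs differed by 1.21 (SE 0.05). Cd163, the hemoglobin scavenger receptor, ran the other way, at -0.82, -0.79, -0.68 and -0.50 at PS and at 1.6, 1.94 and 1.9 at DR6 (difference -2.51, SE 0.25, adjusted p = 5.4e-07). For Cd163 PS was the lowest site, with SOL at 1.39, DR1 at 1.70 and DR4 at 0.80. The summed level of the 16 markers was 219 to 222 at PS and 121 to 131 at DR6. Chi3l3, the chitinase-like lectin Ym1 of alternatively activated macrophages, was at 0.50, 0.52, 0.48 and 0.31 at PS and at -3.04, -3.47 and -3.23 at DR6, 13-fold higher at PS (difference 3.70, SE 0.14), and was higher still at DR4 (1.38). Its relative Chi3l4 was at least 5.73-fold higher at PS; the pair is close in sequence. Among 19 T and NK cell markers, Cd8a (1.20, SE 0.11) and the chemokine receptor Cxcr6 (1.38, SE 0.10) were higher at PS. So was Klrb1c (at least 1.16-fold, above background on 3 of the 4 PS arrays). The granzyme Gzma was higher at DR6 (-1.34, SE 0.21, above background on 2 of the 4 PS arrays). These calls stand beside 7.31% called over all genes, and each was lost with normexp. None of 12 genes of MHC class II presentation and none of 8 neutrophil markers was called, although 8 and 3 of them passed limma's adjusted p alone (11 and 3 the unadjusted p under 0.05). The adjusted p alone was passed by 42.2% of all genes. Cd74, the invariant chain, differed by 0.29 (SE 0.09).

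Of 30 acute phase genes, 8 were higher at PS and 1 at DR6, with a median of 0.22 (0.39 under median scaling). The inhibitor A2m was at 1.5, 1.54, 1.54 and 1.54 at PS and at -0.57, -0.81 and -0.65 at DR6, 4.62-fold (difference 2.21, SE 0.09). Saa3, serum amyloid A3 (1.54, SE 0.09), Lbp, which binds bacterial lipopolysaccharide (1.36, SE 0.13), Il1rn, the interleukin-1 receptor antagonist (1.10, SE 0.09), and Steap4, a metalloreductase (1.08, SE 0.07), were higher at PS, as were Apcs, Serpina3g and Orm1. Socs3, the feedback inhibitor of interleukin-6 signalling, was higher at DR6 (-1.5, SE 0.07). Saa1 and Hp were saturated on every array of both sites, so no fold is given for either. Lcn2 was above background on no array of either site.

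Some transcripts were measured at PS and at background on all DR6 arrays, besides those given in the groups above. Kap, an androgen-regulated kidney protein, was at -0.77, -0.86, -0.73 and -0.78 at PS and between -6.28 and -5.99 at DR6, at least 10.1-fold higher at PS, and its means at SOL, DR1 and DR4 were -6.16, -6.06 and -5.98. The kidney transporter Slc34a1 (at least 1.34-fold, above background on 3 of the 4 PS arrays) and the kidney cadherin Cdh16 (at least 2.26-fold) were called higher at PS too. For each, PS was the highest site, and the call was lost with normexp. Of the 7 kidney markers tested these 3 were called higher at PS, Miox was higher at DR6 (-1.43, SE 0.09), and Slc22a6, Aqp2 and Umod were not called. The summed level of the 7 was 3.08 to 3.21 at PS and 4.6 to 5.07 at DR6. Miox, with a mean level of 0.31 at PS and 1.74 at DR6, made up most of the DR6 sum. That sum therefore does not describe the 3 called higher at PS, and the part of kidney tissue was not tested. Outside the lists, Xlr4b, of the X-linked lymphocyte-regulated family, was at least 6.57-fold higher and Tmie, an inner-ear membrane protein, at least 4.76-fold higher at PS. The glucuronosyltransferase Ugt2b35 was at least 4.16-fold higher. With normexp the calls of Xlr4b, Tmie and Ugt2b35 were lost as well.

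Of 22 genes of metallothioneins and of zinc and manganese transport, 1 was called in each direction, beside 7.31% called over all genes, and both calls, of Slc30a10 (0.84) and Slc39a5 (-0.50), were lost with normexp. Slc30a10, the manganese exporter, was -0.61 to -0.39 at PS and -2.14 to -2.11 at DR6 (difference 1.63, SE 0.09, adjusted p = 3.1e-10), and DR6 was the lowest of the 5 sites. Slc39a5, a zinc importer, was -3.93 to -3.52 at PS and -1.77 to -1.73 at DR6 (difference -1.99, SE 0.29). The metallothioneins Mt1 (-0.48, SE 0.12, adjusted p = 0.004) and Mt2 (-0.37, SE 0.13, adjusted p = 0.029), the classic targets of zinc and cadmium, were below the 2-fold limit with the brightest probe, and Mt1 passed it with the mean of its probes (-1.23). Hepcidin (Hamp1), the iron hormone, differed by -0.53 (SE 0.15) and the transferrin receptor Tfrc by 0.12 (SE 0.05).

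Genes that answer to foreign chemicals were called in both directions, at shares to be read beside the 7.31% of all genes. Of 5 genes tested for the aryl hydrocarbon receptor, which binds dioxins and polycyclic hydrocarbons, 1 was the receptor's own, Ahr (-0.99, not called). The target Tiparp was 0.58 to 0.63 at PS and 3.18 to 3.32 at DR6 (difference -2.62, SE 0.11). Cyp1a1 was -1.68 to -1.43 at PS and -0.39 to -0.12 at DR6 (-1.32, SE 0.19). Cyp1a2, the abundant liver member of the family, lay the other way at 0.80 (SE 0.07), under the limit. Of 32 Cyp2 and Cyp3 enzymes, Cyp2b10, the marker of the receptor CAR (1.26, SE 0.09), and Cyp2c44 (1.48, SE 0.06) were higher at PS, and Cyp2c55 (-1.11, SE 0.07) and Cyp2c65 (-1.18, SE 0.17) higher at DR6. Cyp3a11, the marker of the receptor PXR, differed by -0.25 (SE 0.12, adjusted p = 0.105). Of 19 conjugating enzymes, the sulfotransferases Sult1d1 (1.58, SE 0.07) and Sult1e1 (at least 1.86-fold) and Ugt2b35 were higher at PS, and Sult1c2 (-1.85, SE 0.10) was 1 of 2 higher at DR6. Among 22 antioxidant genes, Gpx3, a secreted glutathione peroxidase, was higher at PS (1.10, SE 0.14) and Txnip, the thioredoxin inhibitor, higher at DR6 (-1.6, SE 0.06). These 2 calls stand beside 7.31% called over all genes. No member was called among 25 NRF2 targets or 21 glutathione S-transferases. In limma's fit 16 of the former and 7 of the latter passed the adjusted p alone and 18 and 9 the unadjusted p under 0.05, with differences of -0.71 to 0.80 and -0.50 to 0.95. The adjusted p alone was passed by 42.2% of all genes. Nqo1, an NRF2 and aryl hydrocarbon receptor target, differed by 0.68 (SE 0.10) and Hmox1, heme oxygenase, by -0.26 (SE 0.10). With normexp the calls of Cyp1a1, Cyp2b10, Cyp2c55, Cyp2c65, Sult1e1, Ugt2b35 and Gpx3 were lost. Those of Tiparp, Cyp2c44, Sult1d1, Sult1c2 and Txnip were kept.

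Smaller groups also held called genes, at shares to be read beside the 7.31% of all genes. Of 31 collagen and matrix genes, 5 were higher at DR6, among them Lum (-1.45, SE 0.06), Col1a1 (-1.11, SE 0.12) and Col3a1 (-1.06, SE 0.09). Among 33 cell cycle genes, 3 were higher at DR6 and 1 higher at PS. The former were Cdc2a (-1.38, SE 0.30, above background on 2 of the 4 PS arrays), Ccnb1 (at least 1.31-fold, above background on 1 of the 3 DR6 arrays and on no PS array, a call lost without any 1 of 6 of the 7 arrays) and Foxm1, and the latter was Tk1 (1.02, SE 0.08). Without the third DR6 array Col3a1 fell short of the limit (-0.98), as did Tk1 without the first (0.96). Col1a1 (-0.94) and Col3a1 (-0.89) were not called under median scaling. With normexp the calls of Lum, Col1a1, Col3a1, Cdc2a, Ccnb1 and Tk1 were lost. The heat shock genes Hspa1a (-1.08, SE 0.07) and Hspa1b (-1.07, SE 0.10), near-identical copies, were higher at DR6, 2 of 24 chaperone genes tested, beside 7.31% over all genes. Under median scaling neither was called (-0.91 and -0.90), nor with normexp (-0.64 and -0.48). Car3, an abundant carbonic anhydrase that fat and muscle also make, was lower at PS than at any other site (-2.09, SE 0.09), but not called with the mean of its probes (-0.53). Adipoq, the fat cell hormone, was higher at DR6 (-1.42, SE 0.25), a call lost with normexp, and was above background on 1 of the 4 PS arrays. Of 8 adipose markers 3 were higher at DR6, and their summed level was 28.2 to 29.99 at PS and 34.6 to 38.03 at DR6. Rdh11 (-1.58, SE 0.10), a retinol dehydrogenase, was higher at DR6 and Aldh1a3 (1.33, SE 0.30), which makes retinoic acid, at PS. They were the called members among 24 retinoid genes tested, beside 7.31% called over all genes. Of 20 male-biased liver genes tested, Cyp4a12, a male-specific hydroxylase, was called higher at PS (1.6, SE 0.07), and Elovl3 and Egfr higher at DR6. No gene was called among 62 of oxidative phosphorylation (differences -0.33 to 0.39, 12 past limma's adjusted p alone and 18 past the unadjusted p under 0.05) or 40 of complement and coagulation (-0.59 to 0.74, 17 and 21). None of 15 endothelial markers was called (-0.35 to 0.18, 3 and 3). These counts stand beside 42.2% of all genes past the adjusted p alone.

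Seen across all 5 sites, the called genes differed in which site stood at the end of the range. Of the 782 genes higher at DR6, PS was the lowest and DR6 the highest site for 308, DR6 alone was at its end for 218, PS alone for 166, and neither for 90. Of the 411 higher at PS, PS was the highest and DR6 the lowest for 156, DR6 alone was at its end for 90, PS alone for 129, and neither for 36. The mean of SOL, the site labelled unpolluted, was nearer to PS than to DR6 for 495 of the 782 and for 234 of the 411. Lists followed different orders: cholesterol synthesis had PS alone at the low end, growth arrest genes were low at SOL and PS, exocrine pancreas genes were lowest at DR4, and erythroid genes were high at SOL and PS. Each site is 1 pool, so these orders carry no test across pools.

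**Figure D4:**
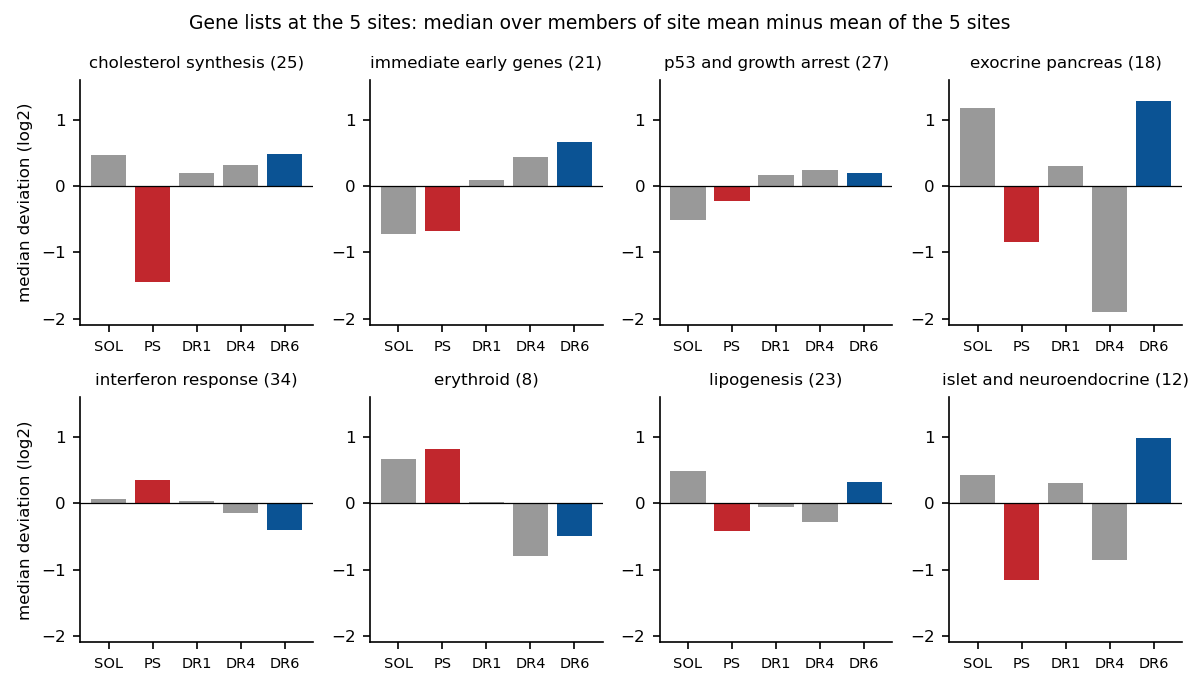
Median over the tested members (number in brackets) of the deviation of a site's mean from the mean of the 5 sites (y axis, log2) for 8 gene lists, with PS in red, DR6 in blue and SOL, DR1 and DR4 in grey; each site is 1 pool and no error is drawn. Cholesterol synthesis is low at PS alone (-1.45), whereas exocrine pancreas genes are at 1.29 at DR6, -0.85 at PS and -1.91 at DR4.

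For a few genes the answer depended on the probe. With the mean of a gene's probes in place of the brightest, the calls of Egfr, Fdps, Slc2a2, Cd8a, Cyp2b10, Car3 and Hspa1b were lost, and Mt1 (-1.23) and Srebf2 (-1.16) passed the limit. The lines below give the first 30 bases of each probe of Mt1, Fdps and Apob that was above background on all PS and DR6 arrays, since these probes of 1 gene gave unlike differences. The probe that stood for the gene comes first within each gene. Where a probe spans a gap in the genome, the interval is that of the whole probe.
Mt1, chr8:97069240-97069269, plus strand: cctgctgtcccgtgggctgctccaaatgtg
Mt1, chr8:97069073-97069102, plus strand: aactggctctgagaaatgtcctttgcttcc
Fdps, chr3:89180817-89180957, minus strand: agatacactgaaaagaggtacaaatcgatt
Fdps, chr3:89185061-89185090, minus strand: agggactgacaggtgggcacagagaatttt
Apob, chr12:8042396-8042425, plus strand: atttgttggtgagtccacaagattgattga
Apob, chr12:8042336-8042365, plus strand: ccagcagttccactccaatctgcaggattt
Apob, chr12:8037943-8037972, plus strand: tgatcacaagttcagcttagaaagtctcac

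In a fit by probe, the first Mt1 probe, bright at both sites (6.09 at PS and 6.58 at DR6), differed by -0.48, and the second by -1.98 (SE 0.07, adjusted p = 2.8e-12), past the limit. The Fdps probes differed by -2.71 and -0.55, with the second far dimmer (-1.95 at PS against 3.00). For Apob, the main protein of secreted lipoproteins, the adjacent probes differed by -1.90 and -1.72 and another probe by -0.13 (SE 0.10, adjusted p = 0.38). The call of Apob therefore depends on the probe, and its arrays spread from 1.92 to 2.75 at PS and from 3.77 to 4.86 at DR6.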

How the data were processed

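Cy3-labelled cRNA from pooled liver RNA was measured on 1-colour Agilent arrays of 45018 spots. The submitters' processing notes name Agilent Feature Extraction 9.5.3.1, with which the authors turned scans into linear, background-corrected intensity, the unit of the deposited files. The authors' deposited series table holds the same intensity rounded (largest relative difference 0.497%). Per the file headers, the other deposited columns are flags (well above background, saturated, outlier, control); the raw mean and background intensity in the deposited files served an alternative.

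The 1639 control spots were left out. The log2 of the processed intensity minus each array's 75th percentile was used, a spot flagged as an outlier was dropped, and replicate spots averaged. Probes had to exceed background on 3 or more arrays of any site (23458 of 41174 probes), and the brightest kept probe stood for a gene. Symbols come from the mm8 design file. A bound sets the brighter mean against the higher of the dim probe and the array's lowest signal above background.

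limma 3.58.1 (R 4.3.3) fitted a mean per site to all 19 arrays; PS minus DR6 was tested two-sided with moderated variances and Benjamini-Hochberg adjustment. The fit was tested on simulated data. Arrays per site limit the precision. The slide could not be fitted as a block. The lists, genes and comparison were chosen with earlier results of these data known, so counts over lists are descriptions with no set test. The rule named the 12 largest measured calls and the 5 largest bounds in each direction, up to 5 called members of a list in each direction, and fixed genes whatever their value; other called members of lists are named without values. Some genes the rule covers are not reported here. No promoter or protein sequences were used here.

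Alternatives were median and quantile scaling, normexp background correction (offset 50) with quantile scaling, 2 other filters, the mean of a gene's probes, the 7 arrays alone, the replicate number as a block, a test against the 2-fold limit (limma's treat), the series table and leaving out each array.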

Additional observations from a re-analysis of the deposited data

Results flagged for a closer look

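Among the 161 genes examined, 8 had 1 of the 4 PS arrays far from the other 3 by Dixon's test at its 95% critical value. Chance gives about 1 such gene in 20, close to the share found, so the 8 are listed only as a description. The DR6 group of 3 arrays was not tested. The fourth PS array was the one apart for 6 of them. It was higher for Armet (4.67 against 4.58 to 4.59), Cyp3a11 (8.29 against 8.15 to 8.17) and Sqle (1.33 against 1.11 to 1.15). It was lower for Eraf (-1.73 against -1.54 to -1.51), Srebf1 (2.69 against 2.78) and Tgtp (4.23 against 4.38 to 4.40). The second PS array was higher for Lbp (5.27 against 5.22) and the third lower for Tk1 (2.58 against 2.63 to 2.64). Of these 8 genes, Cyp3a11 (-0.25) and Srebf1 (-0.01) were not called between the sites.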

How the results depend on the processing

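Each of the 136 called genes examined singly kept its direction under each alternative that measured it, and 128 stayed called whichever array was left out. These genes were picked as called in the same arrays, which the alternatives reuse, so a kept direction is not separate evidence. Calls numbered 1193 (411 higher at PS, 782 at DR6). With normexp and quantile scaling they fell to 303 (77 and 226), and with limma's treat against 2-fold to 412 (138 and 274), since that test asks for more than a 2-fold difference. Median scaling gave 620 higher at PS and 558 at DR6. It lost 10 of the 136, Cry1, Lpin1, Cyp8b1, Asns, Cyp2c55, Ccnb1, Col1a1, Col3a1, Hspa1a and Hspa1b. Leaving out 1 array gave 1111 to 1217 calls. With normexp the counts by list were 2 for EGF ligands, 3 for islet and 2 for gut genes higher at DR6, and 4 for interferon, 3 for erythroid and 5 for acute phase genes higher at PS. With treat they were 4 for lipogenesis, 5 for islet, 3 for interferon, 3 for erythroid and 2 for acute phase genes. Median scaling gave 4 for lipogenesis and 16 for interferon genes. The cause was not tested. Of genes with no difference, Srebf1 (-0.01) turned to 0.16 under median scaling, 0.048 with normexp and 0.015 with the replicate block, and ran from -0.037 to 0.0087 over the arrays left out. Lcn2 (-0.15), at background, turned to 0.019 under median and 0.14 under quantile scaling, and ran from -0.57 to 0.20.

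The labels number the arrays of each site, but these are repeats of separate pools. The deviations of same-numbered PS and DR6 arrays correlated at 0.15, -0.03 and 0.03, so they share only a number. With the replicate number as a block 1229 genes were called. Slide as a block could not be fitted, since each slide holds 1 site. With 1 pool a site, no value here measures the spread between mice, and dim probes near background are limited to bounds.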
